A study of Saccharomyces cerevisiae with 8 samples.

Results

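UWOPS05.217.3 is a wild *Saccharomyces cerevisiae* isolate from Malaysia, and its transcriptome was set against those of the other Malaysian parents, UWOPS03.461.4 and UWOPS05.227.2. For each gene, the difference was taken between UWOPS05.217.3 and the mean of the other 2 strains on the scale of log2(normalized read count + 1). A gene was kept when this difference was larger than the distance between the other 2 strains, among genes with a mean normalized count of at least 100 over the 5 sequenced parents. Of the 5797 genes in the table, 5692 met the minimum and 3935 of these were kept. The share kept was 69.1% of the genes tested, with 25.7% higher and 43.5% lower in UWOPS05.217.3. Of the genes kept, 37.1% were higher with the values as deposited, 47.5% after rescaling by the median ratio and 49.7% after quantile normalization, so the balance of directions depends on the scaling. Because these same values chose the genes, the parental differences below are a description and not a test.

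The series holds 8 samples, of which 5 are parents and 3 are hybrids, with 1 culture and 1 library of each. The Malaysian parents and the wine/European parent BC187 carry the genotype MATa/@ HO. The second wine/European parent, RM11-1, was made by crossing RM11-1a with RM11-1b and is MATa/@ with the alleles ura3 and ho::kanMX. The strain list of the study also gives RM11-1 as lys2/LYS2 and leu2/LEU2. The hybrids are YHL065 (UWOPS05.217.3 x BC187), YHL063 (UWOPS03.461.4 x BC187) and YHL058 (UWOPS03.461.4 x RM11-1b). Their labels give MATa/@ HO, while the strain list of the study gives YHL058 with 1 HO allele and 1 ho::kanMX allele. All were grown in YPD, a rich glucose medium, at 30° to the middle of logarithmic growth. With 1 culture of each, a property of the strain, the culture and the library cannot be told apart.

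Yeast growing on glucose takes up the sugar through hexose transporters of low or high affinity and ferments it, while genes for other carbon sources are held down. As glucose runs low, cells store trehalose and glycogen, and general stress genes are switched on by Msn2 and Msn4, which bind the stress response element (STRE, letters AGGGG). Genes that assemble the ribosome follow growth, and many carry the PAC motif (letters GATGAG) upstream. Iron uptake genes are activated by Aft1, whose sites hold the core letters CACCC.

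Of the trehalose and glycogen genes, 17 were kept as lower in UWOPS05.217.3 and 1 as higher, and of the iron genes 19 were kept as higher and 5 as lower. Of all genes tested, 43.5% were kept as lower and 25.7% as higher. The upstream windows of the pair of genes with the largest difference in each list follow. Each window was read from the S288C reference genome, RefSeq assembly R64, and not from the strains themselves. It covers 300 bases, starting 400 bases before the start codon, 5′ to 3′ on the strand of the gene. Capitals mark AGGGG or its complement CCCCT in the first pair and CACCC or its complement GGGTG in the second pair. The window of *GSY1* lies at chrVI:176492-176791 on the minus strand and that of *GPH1* at chrXVI:860906-861205 on the plus strand. The window of *SIT1* lies at chrV:27257-27556 on the plus strand and that of *FTR1* at chrV:461841-462140 on the minus strand.
GSY1: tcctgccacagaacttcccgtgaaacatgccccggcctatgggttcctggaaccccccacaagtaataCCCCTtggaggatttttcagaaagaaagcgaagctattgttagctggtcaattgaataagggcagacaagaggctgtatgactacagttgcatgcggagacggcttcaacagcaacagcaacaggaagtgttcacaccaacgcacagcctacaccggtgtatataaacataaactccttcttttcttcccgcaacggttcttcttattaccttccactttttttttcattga
GPH1: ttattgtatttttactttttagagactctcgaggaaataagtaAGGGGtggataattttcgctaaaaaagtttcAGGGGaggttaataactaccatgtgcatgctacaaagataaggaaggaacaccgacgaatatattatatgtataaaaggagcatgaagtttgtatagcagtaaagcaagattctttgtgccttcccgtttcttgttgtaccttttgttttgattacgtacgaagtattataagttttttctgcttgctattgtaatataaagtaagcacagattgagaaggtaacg
SIT1: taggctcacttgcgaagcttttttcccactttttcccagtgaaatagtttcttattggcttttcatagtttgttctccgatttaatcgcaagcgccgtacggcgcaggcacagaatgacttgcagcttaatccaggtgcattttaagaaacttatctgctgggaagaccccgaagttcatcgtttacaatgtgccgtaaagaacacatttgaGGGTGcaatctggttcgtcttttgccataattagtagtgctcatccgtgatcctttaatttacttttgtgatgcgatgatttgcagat
FTR1: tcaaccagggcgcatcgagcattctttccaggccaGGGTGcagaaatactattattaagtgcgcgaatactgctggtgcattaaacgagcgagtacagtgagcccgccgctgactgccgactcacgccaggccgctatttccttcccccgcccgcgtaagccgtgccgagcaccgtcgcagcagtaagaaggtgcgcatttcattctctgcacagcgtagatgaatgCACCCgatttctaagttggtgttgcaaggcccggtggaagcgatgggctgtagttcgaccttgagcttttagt

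The letters AGGGG occurred on either strand in 23.7% of the windows of 5688 tested genes. Of the 19 windows of the trehalose and glycogen list, 15 held them (78.9%), as did 25 of the 33 of the stress response list (75.8%). Of the kept genes that were lower by at least 1 on the log2 scale in UWOPS05.217.3, 50 of 84 held them (59.5%), against 10 of the 38 that were higher by at least 1 (26.3%). The Aft1 core CACCC was found in 23.3% of all windows and in 29 of 33 windows of the iron list (87.9%). That list was made of iron uptake genes and Aft1 targets, so a high share there is partly built in. PAC was found in 18.4% of all windows and in 57 of 87 windows of ribosome biogenesis genes (65.5%). The stress response and ribosome biogenesis lists were also written from general knowledge of such genes, so their shares may be partly built in as well. The 84 lower genes include members of the trehalose and stress lists and were chosen by the parental values, so their share is not separate support. A match is a description of the reference sequence and not a bound site.

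UWOPS05.217.3 stood apart from a close pair. Over the 5692 genes tested, the median absolute log2 difference was 0.17 between UWOPS05.217.3 and UWOPS03.461.4 and 0.16 between UWOPS05.217.3 and UWOPS05.227.2, against 0.08 between the other 2. It was 0.25 between the wine/European parents BC187 and RM11-1. Genes that differed by at least 1 on the log2 scale numbered 145, 142 and 45 in the same 3 Malaysian pairs and 309 between BC187 and RM11-1. The kept genes had a median absolute difference of 0.22. At the border of the rule, *CHS6* was kept with a difference of 0.1800 against a distance of 0.1798 between the other strains, and *CDC26* was not kept with 0.0644 against 0.0645. At the minimum level, *DSF1* entered with a mean of 100.2, and *YBR012W-A* stayed out with 99.0.

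A difference of at least 1, which is at least 2-fold, was seen at 122 of the kept genes (2.14% of the genes tested). UWOPS05.217.3 was lower at 84 of them (1.48% of the genes tested) and higher at 38 (0.668%). A further 13 genes differed by as much but were not kept, since the other 2 strains lay further apart. The differences were also compared with limma over all 5 parents in 3 groups, in which the single UWOPS05.217.3 library is assumed to vary like the others. None of the 5692 genes (0%) passed an adjusted *P* of 0.05, the smallest adjusted *P* being 0.359, and 421 genes (7.4%) had an unadjusted *P* under 0.05. A fit of the 3 Malaysian parents alone called 543 genes, 239 higher and 304 lower, but its error comes only from the distance between the other 2 strains, which the rule used as well. The same limit holds for the fits without BC187 or without RM11-1, since a single wine/European parent adds nothing to the error.

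Genes of trehalose and glycogen metabolism were lower in UWOPS05.217.3 almost throughout the list. Of 19 genes tested, 17 were kept as lower and 1, *GLG2*, as higher by 0.07, beside 43.5% and 25.7% of all genes. The median difference was -1.14 on the log2 scale, against -0.06 over all genes tested. It was -1.26 against UWOPS03.461.4 and -0.96 against UWOPS05.227.2, and the other 2 strains differed from each other by 0.18. Against the mean of those 2 strains, BC187 had a median of -2.03 and RM11-1 of -1.51, both lower than that of UWOPS05.217.3. *GSY1*, a glycogen synthase, had a normalized count of 345 in UWOPS05.217.3, 6373 in UWOPS03.461.4 and 6520 in UWOPS05.227.2, which is 18.6-fold lower. BC187 had 64 and RM11-1 had 596, so that UWOPS05.217.3 lay between the wine/European parents and below both Malaysian ones. The second glycogen synthase gene, *GSY2*, had 1080 in UWOPS05.217.3 against 6779 and 5847.

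Genes for both the synthesis and the breakdown of the stores were lower. *GLC3*, the glycogen branching enzyme, had 550 in UWOPS05.217.3 against 3318 and 3290 in the other Malaysian strains. *GPH1*, the glycogen phosphorylase that releases glucose units, had 611 against 5820 and 4766, and *GDB1*, the debranching enzyme, had 572 against 1442 and 1111. In the trehalose pathway, *TPS1* (the synthase) had 13495 against 32274 and 29277, and *TPS2* (the phosphatase) had 5890 against 48841 and 45908, which is 8.04-fold lower. *TSL1*, a regulatory subunit of that complex, had 1715 against 13940 and 11747. *NTH1*, the neutral trehalase, had 3590 against 10848 and 9246. *PGM2*, a phosphoglucomutase that feeds both stores, had 1322 against 6355 and 5809.

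**Figure D1:**
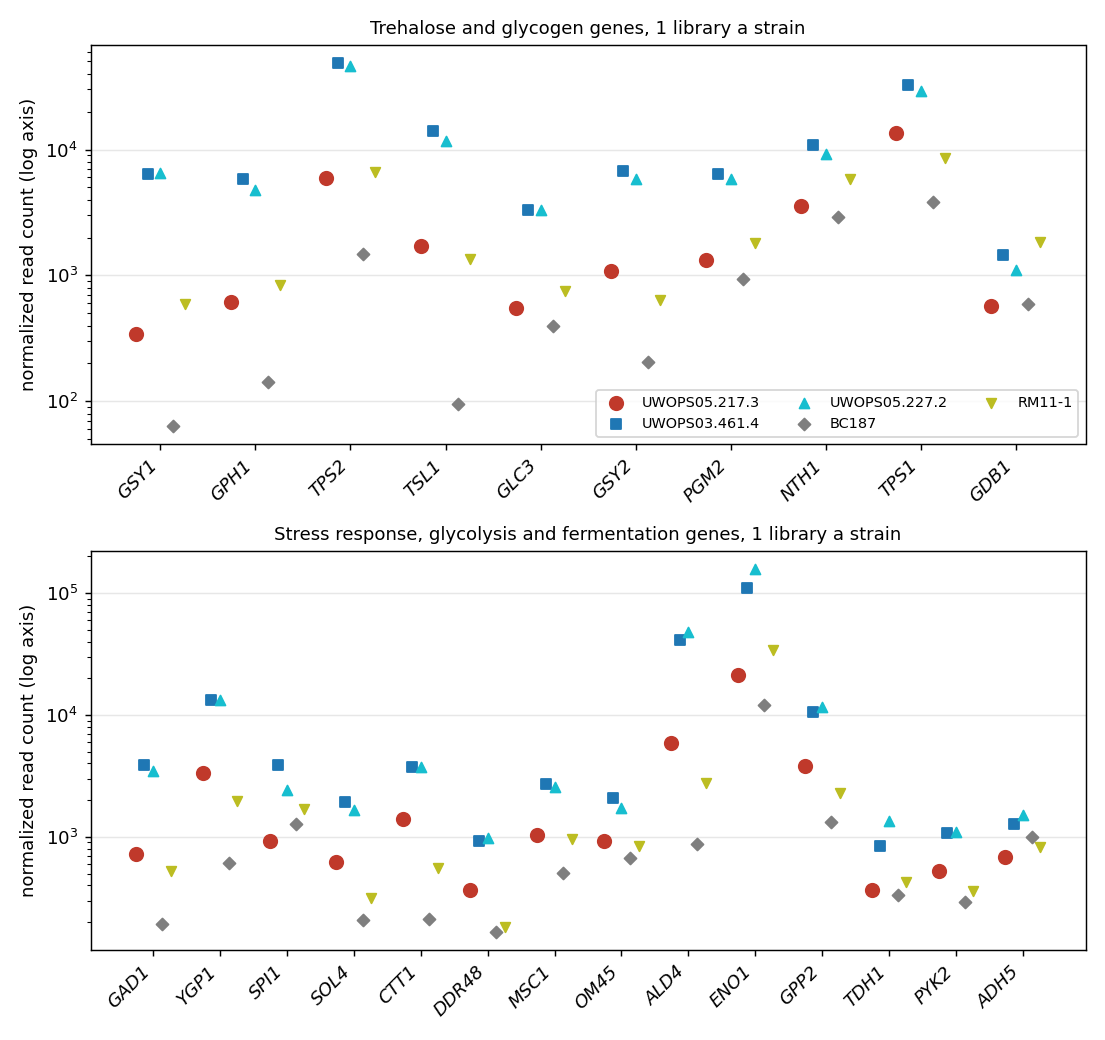
Normalized read counts on a log axis in 1 library of each of the 5 parents, for all kept genes of 3 lists that differed by at least 1 on the log2 scale (*HXK1* and *GLK1* are in the plot of hexose genes). The UWOPS05.217.3 circle lies below both other Malaysian strains at every gene, as at *TPS2* with 5890 against 48841 and 45908, and 345 against 6373 and 6520 at *GSY1*.

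Of the 33 general stress genes tested, 24 were kept as lower and 1 as higher, beside 43.5% and 25.7% of all genes. The median difference of the list was -0.27, so that the difference was carried by a part of it. BC187 had a median of -1.23 and RM11-1 of -0.49 against the mean of the other Malaysian strains. *GAD1*, glutamate decarboxylase, had 727 in UWOPS05.217.3 against 3852 and 3488. *YGP1*, a secreted glycoprotein, had 3347 against 13393 and 13350, and *CTT1*, the cytosolic catalase, had 1393 against 3724 and 3719. For *DDR48* the counts were 364 against 932 and 977. *SPI1*, a cell wall protein gene induced by stress, had 929 against 3854 and 2406, and *SOL4*, of the pentose phosphate pathway, had 621 against 1917 and 1670. *MSC1* had 1045 against 2716 and 2559, and *OM45*, of the mitochondrial outer membrane, had 930 against 2084 and 1711. *MSN2* and *MSN4* themselves had differences of -0.04 and 0.07 and were not kept. Outside the list, *EMI2*, a hexokinase-like gene, had 4812 against 20530 and 18887, and *RCK1*, a protein kinase gene, was 16.3-fold lower than the other strains (1343 and 2062).

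Glycolysis and fermentation genes were kept as lower at 28 of 32 and as higher at 0, beside 43.5% and 25.7% of all genes. The median difference was -0.53. Of the 28, however, 6 held one of the 20 highest places in all 3 Malaysian columns, where the deposited values come in steps: in every column exactly 10 genes share the maximum, and the next 10 lie close together. *TDH3*, *PDC1*, *FBA1* and *ENO2* shared the maximum of all 3 columns, and their difference of -0.10 is that of the maxima. Away from these places, *ENO1*, an enolase, had 21466 against 109415 and 157872. *TDH1*, a glyceraldehyde-3-phosphate dehydrogenase, had 367 against 841 and 1342, and *PYK2*, a second pyruvate kinase, had 522 against 1069 and 1100. *ALD4*, the mitochondrial aldehyde dehydrogenase, had 5842 against 41385 and 47710, which is 7.61-fold lower. *GPP2*, a glycerol phosphatase, had 3788 against 10565 and 11667, and *ADH5*, an alcohol dehydrogenase, had 689 against 1281 and 1516.

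Hexose transporters of different affinity went opposite ways. *HXT4*, a transporter of high affinity, had 5401 in UWOPS05.217.3 against 100744 and 99841, an 18.6-fold lower count that was close to those of BC187 (4401) and RM11-1 (7458). *HXT2*, also of high affinity, had 55433 against 125178 and 124328. The low-affinity transporters were higher. *HXT3* had 449318 against 138979 and 123517, which is 3.43-fold higher, and at 449318 it was among the 20 highest genes, where values come in steps. *HXT1* had 27214 against 10495 and 13601. At both, UWOPS05.217.3 was above all 4 other parents, BC187 having 91277 and 9494 and RM11-1 having 63150 and 2674. Among the kinases that trap the sugar, *HXK1* had 4625 against 25835 and 24087, and *GLK1* had 11644 against 48764 and 49482. *MIG2*, a repressor of genes for other sugars, had 2817 against 1297 and 983. Over the whole list, 12 of 21 genes were kept as lower (57.1%) and 3 as higher (14.3%), with a median of -0.22. Of all genes tested, 43.5% were kept as lower and 25.7% as higher.

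Iron genes were higher in UWOPS05.217.3 than in the other Malaysian strains, in part of the list. Of 33 genes tested, 19 were kept as higher and 5 as lower (25.7% and 43.5% of all genes), with a median difference of 0.21. *SIT1*, a siderophore transporter, had 3680 in UWOPS05.217.3 against 900 and 920, a 4.04-fold higher count. BC187 and RM11-1 had 14720 and 18195, so that UWOPS05.217.3 lay between the groups. The high-affinity uptake complex was also higher than in the other Malaysian strains. Its permease *FTR1* had 78383 against 27497 and 21863, and its multicopper oxidase *FET3* had 39765 against 16098 and 13810. *FRE1*, a ferric reductase that acts before them, had 15124 against 5301 and 5176. BC187 and RM11-1 had 97280 and 57854 at *FTR1*, where UWOPS05.217.3 lay within their range, 64851 and 45861 at *FET3* and 85590 and 27979 at *FRE1*. *CCC1*, which moves iron into the vacuole, was lower, with 3884 in UWOPS05.217.3 against 7963 and 7961, and BC187 and RM11-1 had 4473 and 5109. The iron list was not uniform: the siderophore mannoprotein genes *FIT2* and *FIT3* had differences of -0.02 and 0.18 and were not kept.

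**Figure D2:**
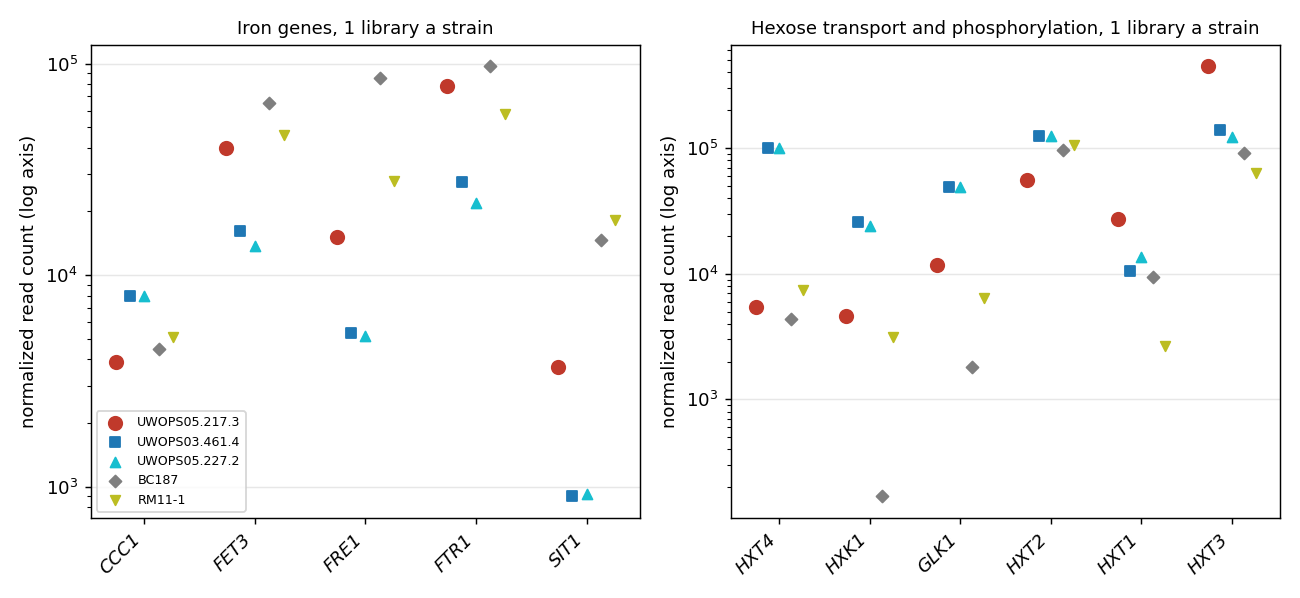
Normalized read counts on a log axis in 1 library of each of the 5 parents, for the kept genes of the iron list (left) and the hexose list (right) that differed by at least 1 on the log2 scale. At *SIT1*, *FTR1*, *FRE1* and *FET3*, UWOPS05.217.3 lies above both other Malaysian strains, and at *HXT4* it lies with the wine/European parents (5401 against 4401 and 7458).

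Ribosome biogenesis genes showed a small difference shared by nearly the whole list. Of 87 genes tested, 77 were kept as higher and 0 as lower, beside 25.7% and 43.5% of all genes. The median was 0.28, a 1.21-fold higher level, with 0.32 against UWOPS03.461.4 and 0.23 against UWOPS05.227.2, which differed from each other by -0.10. *UTP22*, of the small subunit processome, had 29665 against 14090 and 15051, and *RIX1*, of the large subunit pathway, had 33464 against 12093 and 13778. *DBP8*, a helicase of small subunit assembly, had 8898 against 4240 and 4650. These 3 and *UTP9*, the 4 genes of the list that differed by at least 1, all lie in stretches of chromosomes VII and VIII where most genes were higher, and the median of the list outside such stretches was 0.26. BC187 had a median of 0.57 and RM11-1 of 0.13 over the mean of the other Malaysian strains. The genes for the ribosomal proteins themselves did not share this, with a median of -0.11. Of 138, 19 were kept as higher (13.8%, against 25.7% of all genes) and 68 as lower (49.3%, against 43.5%). *RPS22B* had 5664 in UWOPS05.217.3 against 19630 and 19334, below BC187 (19175) and RM11-1 (22268) as well. *RPS2* had 991237 against 260634 and 494603 but lies among the stepped values at the top of the columns, so that the size of its 2.76-fold difference is uncertain. The same holds for the proton pump gene *PMA1* (991237 against 487223 and 493771) and the elongation factor gene *YEF3* (451299 against 1090873 and 1028174).

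Amino acid permease genes were kept as lower at 12 of 20 and as higher at 3, with a median of -0.48. *DIP5*, the glutamate and aspartate permease, had 8193 against 28385 and 31303, and *AGP1*, a broad permease, had 5352 against 11970 and 12373. *GAP1*, the general permease, had 206 against 408 and 448. *PTR2*, a peptide transporter, had 33884 against 79238 and 73590. For respiration, 38 of 51 genes were kept as lower (74.5%, against 43.5% of all genes) and 5 as higher (9.8%, against 25.7%). The median was -0.20. *SDH1* of succinate dehydrogenase had 7243 against 17339 and 15754. The lactate dehydrogenase genes *DLD1* and *CYB2* had 14172 against 30528 and 32149 and 812 against 1766 and 1645. *MDH2*, the cytosolic malate dehydrogenase, had 1883 against 4243 and 3754, and *YAT1*, a carnitine acetyltransferase, was higher with 1989 against 1167 and 524. *MET6*, methionine synthase, had 9224 against 24591 and 31607. Among drug pumps, *PDR12* had 1575 against 3169 and 4578, *PDR15* had 245 against 880 and 817, and the polyamine exporter gene *TPO4* had 587 against 1377 and 1058. The remaining lists had medians between -0.26 and 0.11.

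**Figure D3:**
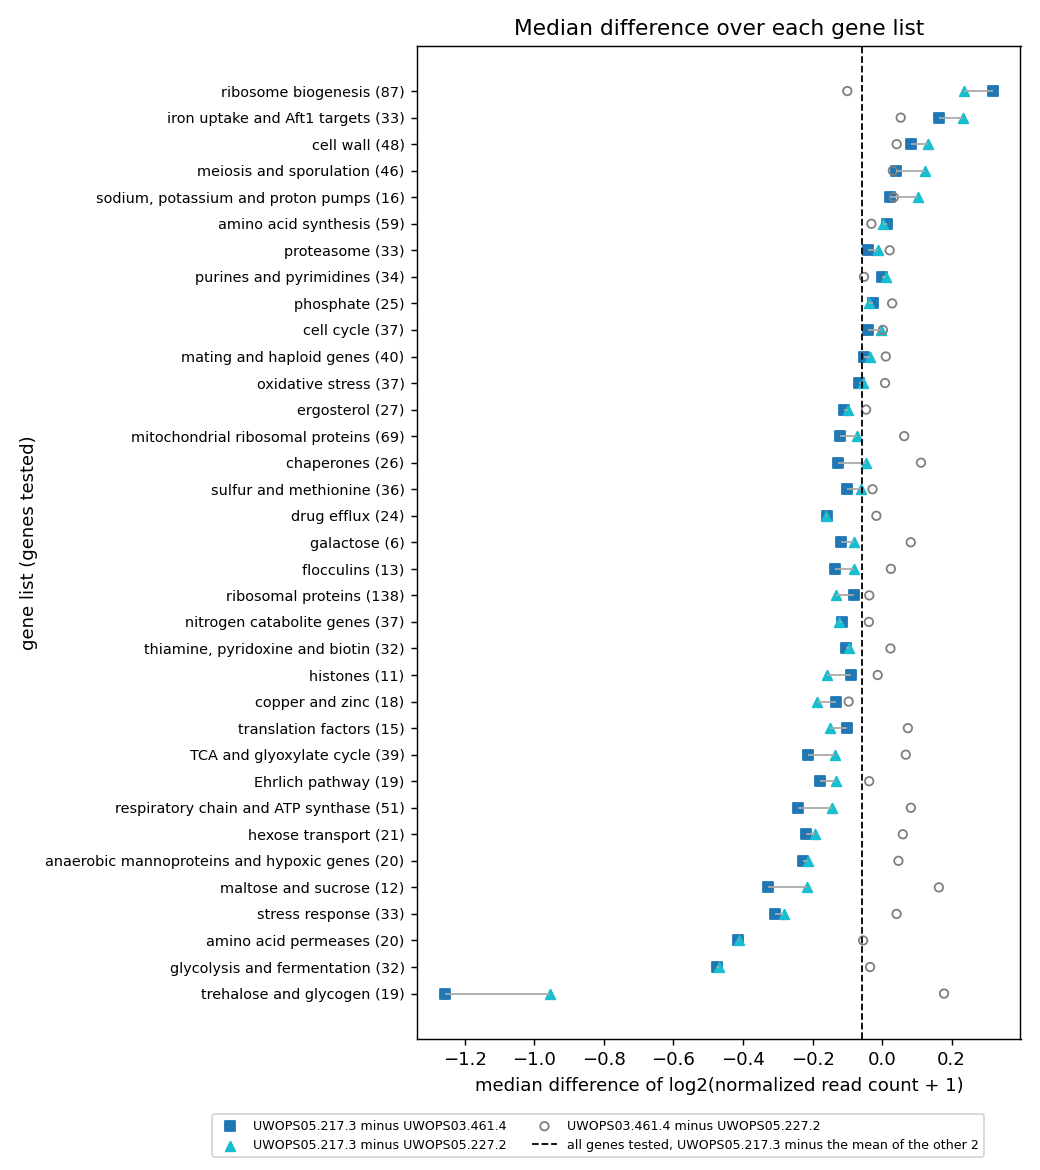
Median difference of log2(normalized read count + 1) over each of 35 gene lists, with the number of genes tested in brackets. Squares and triangles give UWOPS05.217.3 against each other Malaysian strain, open circles give the other 2 strains against each other, and the dashed line is the median over all genes tested (-0.06). Trehalose and glycogen lie lowest (-1.26 and -0.96) and ribosome biogenesis highest (0.32 and 0.23).

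At the cell surface, the flocculin gene *FLO11* had 21506 in UWOPS05.217.3 against 261985 and 257426, a 12.1-fold lower count that was still far above BC187 (929) and RM11-1 (59). In UWOPS03.461.4, the values just below the 20 highest also lay close together, from 263491 to 260634 at place 30. The 261985 of *FLO11* lies among them, so the size of its difference is uncertain. *FLO1* had 2654 against 28771 and 27069, with 0 in BC187 and 77 in RM11-1. In the reference, 37.1% of the 100-base windows of *FLO1* and 15.4% of those of *FLO11* occur more than once, so reads there may be lost or shared. *FLO10* had 96 against 212 and 407 and was listed at 0 in RM11-1. In the other direction, *HPF1*, a cell wall glycoprotein gene, had 61264 against 9294 and 3282, and *PRY3* had 40187 against 22124 and 8805. For both, the other Malaysian strains were themselves apart. Of other cell wall genes, *PIR3* had 549 against 1698 and 1634 and *PST1* had 666 against 1859 and 1768. *MGA1*, which acts in filamentous growth, had 659 against 1840 and 1917. *PHO84*, the high-affinity phosphate transporter, had 29156 against 12106 and 10286, whereas *PHO89*, the sodium-coupled one, had 10 against 39 and 49.

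Genes of cell type and of sporulation were checked because all parents are labelled MATa/@ diploids. Of the 40 tested genes of the mating and haploid list, 9 were kept as higher and 13 as lower (25.7% and 43.5% of all genes), with a median of -0.05. *FIG1*, of the mating response, had 16 in UWOPS05.217.3 against 146 and 189, below BC187 (215) and RM11-1 (182) as well. Within a shorter set of 17 genes that mark haploid cells and mating type, 12 reached the minimum level, 8 were kept and 1 differed by at least 1. That gene was *RME1*, the repressor of meiosis, with 169 in UWOPS05.217.3 against 62 and 77, which lies in the raised segment of chromosome VII. The summed count of the 17 genes was 12349 in UWOPS05.217.3 and 13067 and 13184 in the other Malaysian strains. *HO*, the mating type endonuclease, was at 119 in UWOPS05.217.3 and at 51 to 127 in the other HO strains, and at 0 in RM11-1, which is ho::kanMX. *SPO21*, of the spore membrane, had 543 against 226 and 207, and *MND1*, of meiotic recombination, had 48 against 199 and 200. *SPO22*, of meiosis, had 287 against 659 and 686, and *SGA1*, the glucoamylase of sporulation, had 175 against 103 and 65. Of the 46 meiosis and sporulation genes tested, 19 were kept as higher (41.3%, against 25.7% of all genes) and 17 as lower (37.0%, against 43.5%).

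Higher genes were not spread evenly over the genome. When the difference was smoothed by a running median over 15 neighbouring genes, 3 chromosome segments of at least 15 genes reached 0.2, and no run of at least 15 genes on any chromosome reached -0.2. They lie on chromosome VII from *VIR1* to *VMA21* (132 genes tested), on chromosome VIII from *EPT1* to *BAT1* (85 genes) and on chromosome X from *NUC1* to *ASF1* (84 genes). The smoothing and the limit were chosen after the values were seen, so no test is given. Gene order was taken from R64 and was not checked in these strains.

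Within the segments, 277 of 301 genes were higher in UWOPS05.217.3 and 253 (84.1%) were kept as higher, against 22.4% of genes outside. These shares only describe the segments, which were drawn from the same differences. The median difference was 0.46 on chromosome VII, 0.41 on chromosome VIII and 0.46 on chromosome X, against -0.07 outside the segments. It was nearly the same against each other Malaysian strain, with 0.45 over UWOPS03.461.4 and 0.46 over UWOPS05.227.2 for the 3 segments together. UWOPS03.461.4 and UWOPS05.227.2 differed from each other there by a median of 0.01, and BC187 and RM11-1 differed from their mean by -0.01 and 0.03. Outside the borders the medians were lower on every side, which is built in, because the borders lie where the running median fell below 0.2. The 15 genes before *VIR1* had a median of -0.16 and the 15 after *VMA21* of -0.09. On chromosome VIII, the 15 genes before *EPT1* had 0.02 and the 10 after *BAT1* had -0.14. On chromosome X, the 10 genes before *NUC1* had -0.22 and the 15 after *ASF1* had -0.02. The segments hold 5.29% of the genes tested but 18 of the 38 kept genes that were higher by at least 1 (47.4%) and 1 of the 84 that were lower (*CTT1*).

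The segments hold genes of many functions. On chromosome VII, *SCW11*, a cell wall glucanase, had 11275 against 5315 and 5071, and *KAP122*, a nuclear importer, had 9880 against 4273 and 4185. On chromosome VIII, *UTP9* had 52018 against 21825 and 27389, and *SCH9*, a growth kinase, had 10703 against 4913 and 5736. On chromosome X, *MNN5*, a mannosyltransferase, had 25129 against 10855 and 10002, and *SPT10* had 1561 against 722 and 675, while *YJL132W* had 287 against 90 and 143. Without the genes of the segments, the number of kept genes higher by at least 1 was 20 rather than 38. The list of cation pumps had a median of 0.07 with them and -0.12 without. No measurement of genomic DNA was analysed here.

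**Figure D4:**
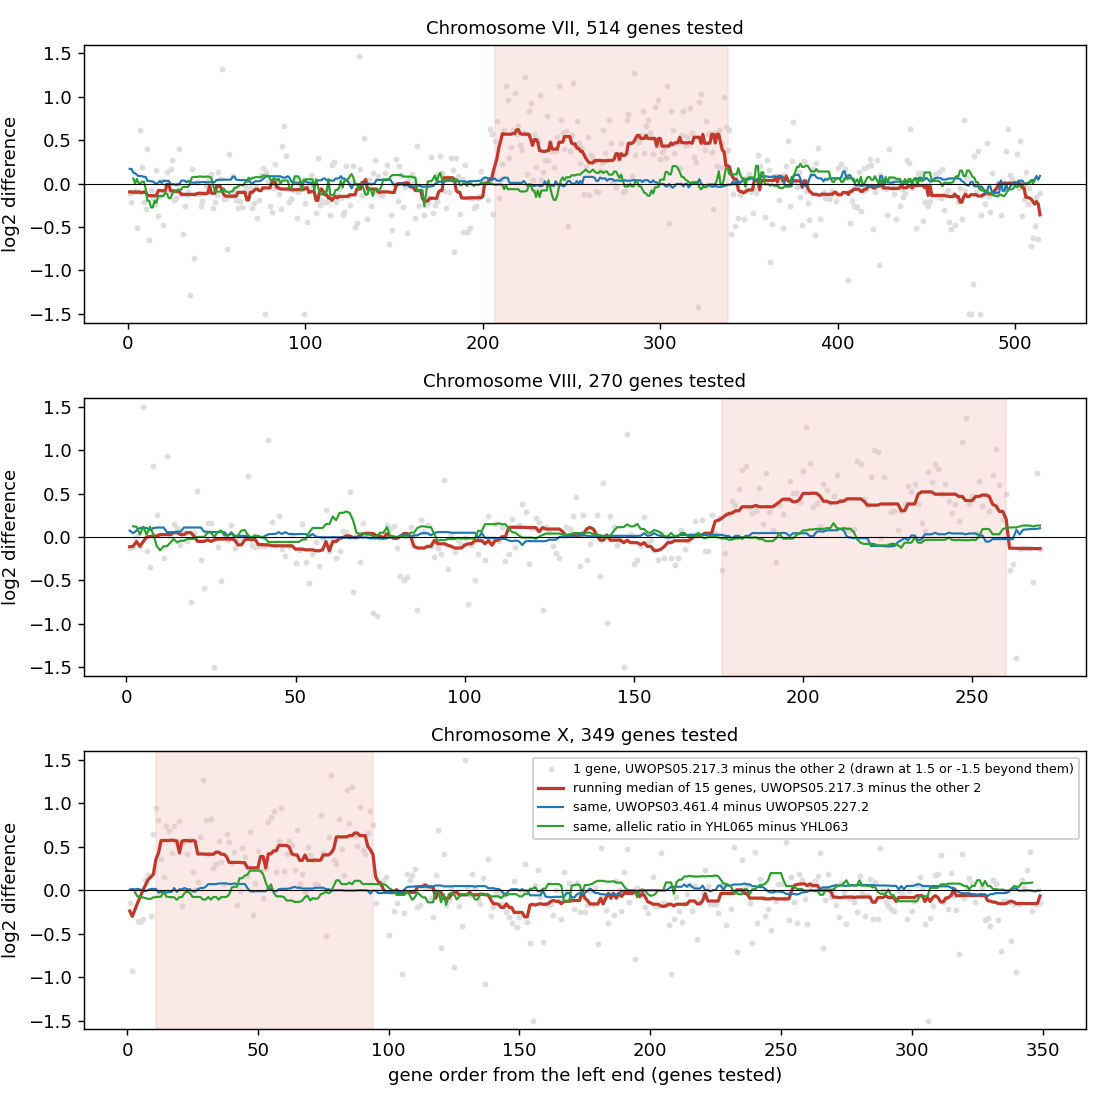
Difference in log2(normalized read count + 1) along chromosomes VII, VIII and X, with genes tested in order from the left end. The red running median of UWOPS05.217.3 minus the other 2 strains is raised in the 3 shaded segments (medians 0.46, 0.41 and 0.46), where the distance of the other 2 strains (blue) and the difference in allelic ratio between hybrids (green) stay near 0.

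Large differences made up a larger share of the genes near chromosome ends than elsewhere, with no test given since the rule used these values. Of 311 genes tested within 30 kb of an end, 5 were kept as higher and 7 as lower by at least 1, which is 3.86%, against 2.04% of the 5381 genes elsewhere (33 higher and 77 lower). The share kept at any size was 66.6% near the ends and 69.3% elsewhere. The median difference was -0.13 near the ends and -0.05 elsewhere.

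Hybrids gave a measure of the alleles that the choice of genes did not use. In YHL065 the UWOPS05.217.3 allele and in YHL063 the UWOPS03.461.4 allele shares a nucleus with the same BC187 genome, so the ratio of Malaysian to BC187 allele can be compared between them. It was available for 93 kept genes that differed by at least 1 between the UWOPS05.217.3 and UWOPS03.461.4 parents. The allelic ratio differed in the same direction at 52 of the 93 (55.9%; exact Clopper-Pearson 95% interval 45.2 to 66.2, counting error only), beside 50.1% of the 5330 genes found in both tables. A ratio that differed by at least 1 in the parental direction was found at 2 of the 93 (2.15%), beside 79 of the 5330 genes (1.48%). In either direction it was found at 4 of the 93, beside 2.46% of genes. The 59 genes lower in the UWOPS05.217.3 parent had a median parental difference of -1.38 and a median difference in allelic ratio of -0.02, and the 34 higher genes had 1.19 and 0.06.

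Several genes with large parental differences had similar allelic ratios in both hybrids. *HXT4* had a normalized count of 82 from the UWOPS05.217.3 allele and 97 from the BC187 allele in YHL065, and 73 and 96 in YHL063. *TPS2* had 865 and 567 in YHL065 and 635 and 496 in YHL063. *SIT1* had 4263 and 5515 in YHL065 and 4074 and 5486 in YHL063, a difference in log2 ratio of 0.06 against 2.03 between the parents. *HXT3* was counted among the 93, but its ratio cannot be read. Its Malaysian allele was at the maximum shared by 10 genes in both hybrids (336140 in YHL065 and 275455 in YHL063). *YEF3*, counted as having the same direction, had both alleles at such maxima, with 336140 and 388493 in YHL065 and 275455 and 292197 in YHL063. The count of 52 and its interval include such values. The 2 genes whose ratio differed by at least 1 in the parental direction were *SPO21* and *FLO11*. *SPO21* had 185 and 887 in YHL065, 61 and 850 in YHL063 and 59 and 703 in YHL058, and the UWOPS05.217.3 allele was higher by 1.61 (limma, standard error 0.22, adjusted *P* = 0.10). *FLO11* had 21 from the Malaysian and 6261 from the BC187 allele in YHL065, against 166 and 18604 in YHL063 and 93 and 20 in YHL058. In the parents the order was opposite, with 21506 in UWOPS05.217.3 and 261985 in UWOPS03.461.4 against 929 in BC187. With 15.4% of its 100-base windows repeated in the reference and only 21 in YHL065, the allelic ratio of *FLO11* is uncertain.

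**Figure D5:**
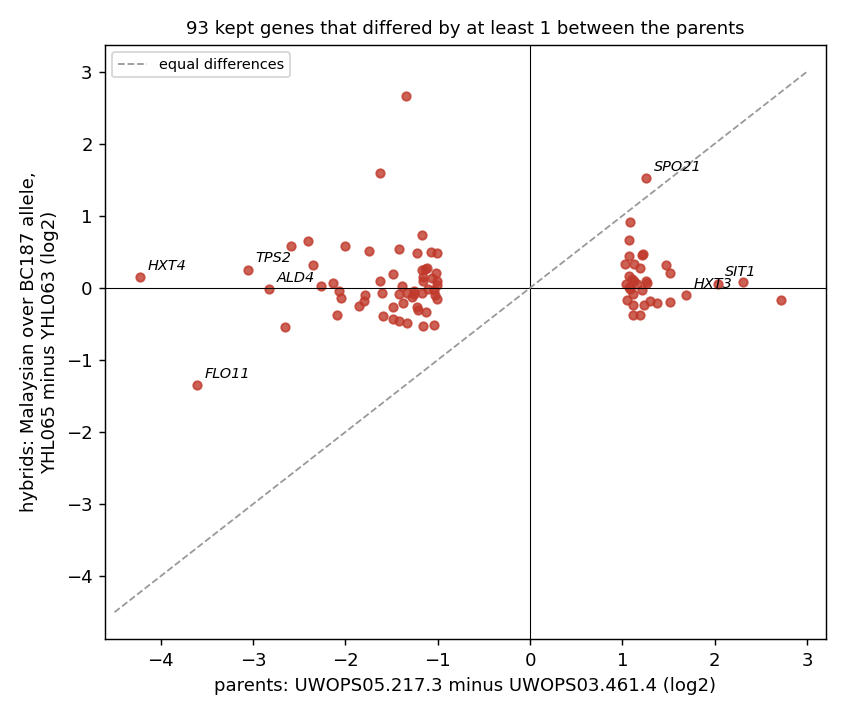
Difference between the UWOPS05.217.3 and UWOPS03.461.4 parents (x axis, log2) against the difference in the log2 ratio of Malaysian to BC187 allele between YHL065 and YHL063 (y axis) for the 93 kept genes with a parental difference of at least 1. The dashed line marks equal differences. The median y value is -0.02 for the 59 lower genes and 0.06 for the 34 higher ones. *SPO21* and *FLO11* reach 1 in the parental direction, and *SOL4* and *RPI1* in the opposite one (1.59 and 2.66). At *SOL4* the Malaysian allele had 173 in YHL065 and 174 in YHL063, and the BC187 allele 28 and 87. At *RPI1* the Malaysian allele had 185 and 209, and the BC187 allele 12 and 92. Low values in YHL065, which had the fewest uniquely mapped reads of the hybrids, may rest on few reads.

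Across all genes in the hybrids, the UWOPS05.217.3 allele was compared with the UWOPS03.461.4 allele by limma, and 20 of 5339 genes passed an adjusted *P* of 0.05. The UWOPS05.217.3 allele was lower at all 20 (0.375%) and higher at 0 (0%), and 353 genes (6.61%) had an unadjusted *P* under 0.05. Of 3713 kept genes in this comparison, 12 were among the 20 (0.323%), none of them with a parental difference of at least 1. YHL065 is 1 library and had the fewest uniquely mapped reads of the hybrids. Without YHL058, 2 genes passed.

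Among the 20 genes, 6 are neighbours on chromosome II. From *TRM7* to *BAP2*, 7 consecutive genes had normalized counts between 0 and 29 for the UWOPS05.217.3 allele in YHL065. The BC187 allele had 118 to 10415 in the same culture. The BC187 allele of these genes was higher in YHL065 than in YHL063 by a median of 0.87 on the log2 scale (-0.55 to 1.43). Whether reads of the UWOPS05.217.3 allele were assigned to BC187, or that allele was absent from YHL065, was not tested. *CNM1* had 0 from the UWOPS05.217.3 allele and 1406 from the BC187 allele in YHL065, against 1121 and 1160 in YHL063 (log2 difference -10.10, standard error 0.23, adjusted *P* = 0.000322 from limma), a difference whose size depends on the pseudocount because 1 value is 0. *TRM7* had 4 and 3238 in YHL065 and *YBR062C* had 4 and 693. *BAP2*, a branched-chain amino acid permease, had 29 and 10415 in YHL065 against 3302 and 5714 in YHL063. *TIP1*, in the same run, had 8 and 693 against 195 and 325 and missed the threshold (adjusted *P* = 0.0574). The genes on either side had both alleles, with 853 and 843 at *ORC2* and 1162 and 1398 at *TAT1* in YHL065. In the UWOPS05.217.3 parent the same 7 genes were expressed, with counts from 382 to 4596, and *CNM1* had 2613 against 2151 and 2175. *DFP2*, on chromosome I, had 12 from the UWOPS05.217.3 allele in YHL065 and 826 from the UWOPS03.461.4 allele in YHL063, beside 8 and 6 from BC187 (log2 difference -5.92, standard error 0.37, limma adjusted *P* = 0.00636). In the parents *DFP2* had 1573 in UWOPS05.217.3 against 1913 and 1832 in the other Malaysian strains. Others of the 20 lie in sequences that are repeated in the reference, such as *TEF2*, with 86.5% of its 100-base windows, and cannot be assigned to 1 gene with certainty.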

How the data were processed

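RNA-seq of polyA-selected RNA was done by the authors on 1 culture of each of 5 parents and 3 hybrids. According to the paper's methods, reads were mapped with Bowtie (0.12.7 in the submitters' processing notes) to strain genomes amended with SNPs, keeping uniquely mapping reads without mismatches, and for hybrids the mapping target combined the 2 parental genomes. The deposited values are a score made by the authors: reads summed per gene, normalized with EDASeq for GC content and between lanes, and rounded to whole numbers. The upper quartile was 6442 in every parental column and 2010 in every column of the hybrids, so the depth behind a value is not kept, and no counting interval is given for a level. The values also come in blocks of 10 at the top of each column, which the stated method does not describe. DESeq fold changes and *P* values of the authors' own comparisons, also deposited, were not used. The genome build was not given in the sources used here, and 5792 of the 5797 identifiers were matched to R64.

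Comparisons used limma 3.58.1 (R 4.3.3) on log2(value + 1) of genes whose mean reached 100, with a mean-variance trend and Benjamini-Hochberg correction, in 3 groups of parents or 4 groups of alleles. No fit drops or imputes a value. Isolates served as replicates, so the error includes differences between strains. Tested on simulated data with 200 changed genes, the parental design called 23 of 100 genes at a log2 change of 1 and 96 of 100 at 2, with 4 false calls among 5492. The hybrid design called 14 and 74 of 100, with 4 false calls among 5139. The simulation gave every gene the same normal spread, whereas measured spreads differed between genes, so these shares need not hold for the data. Genes named are the 15 kept genes with the largest difference in each direction that had at least 10 in every parent, the kept genes of each list with a difference of at least 1, and, in the hybrids, the 5 kept genes with the largest difference past the threshold. Any other gene was named with its values known. The gene lists and the rule were chosen with earlier results of these data known. Alternatives were a pseudocount of 10 or 0.5, no minimum or 1000, rescaling by the median ratio, quantile normalization, no trend and leaving out libraries. Tables were handled with pandas 2.3.3 and numpy 2.4.6 in Python 3.11.15, intervals came from scipy 1.17.1, and figures were drawn with matplotlib 3.10.9.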

Additional observations from a re-analysis of the deposited data

How the results depend on the processing

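The number of kept genes was between 3292 and 3985 under a pseudocount of 10 or 0.5, no minimum, a minimum of 1000, rescaling and quantile normalization. Of the kept genes, 37.1% were higher in UWOPS05.217.3 with the values as deposited, 47.5% after rescaling by the median ratio and 49.7% after quantile normalization, which moved the median difference over all genes from -0.06 to -0.01 and -0.00. Without the genes of the 3 segments, an alternative added after the data were seen, the genes higher by at least 1 numbered 20. In the parents, limma called 0 genes under 7 alternatives, 543 with only the 3 Malaysian parents, and 0 to 523 when 1 library was left out (496 without BC187, 523 without RM11-1, 0 without either other Malaysian parent). In the hybrids, it called 7 genes with a minimum of 1000, 13 after quantile normalization and 2 without YHL058. The fit with the hybrid as a block and the one without YHL063 left no residual degrees of freedom and could not be made. The share of kept genes with the same direction in the hybrids was between 47.1% and 60.5% over 5 alternatives. The median near chromosome ends was different from that elsewhere by -0.072, or -0.058 without the segments. Relative to all genes, the list of cation pumps changed sign without the segments, to -0.051. None of the 84 named genes changed direction under a pseudocount of 10 or rescaling. Leaving out either other Malaysian parent could not change it, since by the rule UWOPS05.217.3 lies beyond both of them at a kept gene. No paired analysis was possible because the labels give no replicate numbers for the parents, and the block of the 2 alleles of a hybrid left no residual degrees of freedom, as above. With 1 library a strain, strain and library cannot be told apart, and the deposited values do not keep the depth behind low values. The read statistics of the study give YHL065 far fewer uniquely mapped reads than the other hybrids, so low values in its columns may rest on few reads.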

Other observations

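Kept genes outside the lists included several regulators and membrane genes. Of the 122 kept genes with a difference of at least 1, 51 were in none of the 35 lists, 31 of them lower and 20 higher in UWOPS05.217.3. *PRM7* had 55 in UWOPS05.217.3 against 658 and 1184 in the other Malaysian strains. *DUR12*, the urea amidolyase, had 4543 against 12172 and 14249. *USV1*, a transcription factor gene, had 245 against 722 and 618, and *FAA1*, an acyl-CoA synthetase gene, had 8863 against 19332 and 23939. *YMR196W* had 177 against 1208 and 1033. *YER187W* was higher, with 281 against 56 and 49, and so was *DFP4*, with 274 against 39 and 46. In the hybrids, its UWOPS05.217.3 allele had 124 beside 32 from BC187 in YHL065, against 25 and 37 in YHL063, below the minimum mean of 100 for the comparison of alleles.

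*RPS2* was among the 10 highest genes of the UWOPS05.217.3 column, but had between 9 and 25 in the 6 columns of the hybrids. *YMR321C* had 974 in UWOPS05.217.3, 1082 in UWOPS05.227.2 and 5063 in UWOPS03.461.4, and in the hybrids the UWOPS05.217.3 minus UWOPS03.461.4 allele difference was -4.09 on the log2 scale, with 50.7% of its 100-base windows repeated in the reference.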
